A study of Homo sapiens with 8 samples.

Results

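Nonsense-mediated decay, retained-intron and processed transcripts are the mRNA-like isoforms that an annotation does not count as ordinary coding transcripts. Here they are the rows of the authors' deposited table of translation efficiency whose digits completed the identifier of a GENCODE release 29 transcript of one of these types or, where the digits matched no transcript, whose name was itself the type word. The rule took 318 of 12109 rows (2.63%), which comprised 216 nonsense-mediated decay, 15 retained-intron and 87 processed transcripts. Of these, 286 matched a GENCODE transcript and 32 were taken by the type word alone. A further 3 rows carry the nonsense-mediated decay word but are protein-coding in GENCODE and were left out.

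The study comprised 8 libraries of human hepatic stellate cells, the vitamin A-storing cells of the liver that make scar collagen when activated. There were 4 groups of 2 libraries: RNA-seq and ribosome profiling, each from genotype WT with treatment dsi-control and from genotype LARP6 kd with treatment dsiLARP6. LARP6 is an RNA-binding protein known for binding collagen mRNAs. Translation efficiency is the abundance of ribosome-protected fragments of a transcript relative to its RNA abundance. Per the labels' protocols, all groups were grown in DMEM supplemented with FBS. The labels give the cell line as "HSCs" for every library. They do not say which line it is, whether the cells came from 1 donor or how long silencing lasted. Whether the paired libraries of a group are separate cultures is not stated either, and the p-values then measure only the spread between these samples, which may be technical. The authors' deposited table gives 1 log2 change per row for the knockdown over the control and the knockdown's log2 efficiency, and holds no value per library, no depth and no error. Neither the spread between replicates nor the loss of LARP6 RNA can therefore be read from it. Among the marker genes listed for stellate cells, 13 of 16 have a row, while DES, LRAT and RGS5 have none. Of the markers listed for other liver cells, 2 of 5 hepatocyte, 1 of 5 endothelial, 2 of 5 leukocyte and 3 of 4 biliary genes have a row, and their levels were not analysed here.

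Nonsense-mediated decay is the pathway that destroys mRNAs on which a ribosome stops well upstream of an exon junction, because the protein complex left at that junction by splicing has not been cleared. UPF1 is its central helicase, and the annotation gives the decay type to transcripts whose stop codon meets this rule. Retained-intron transcripts keep a stretch that other isoforms splice out, and processed transcripts are spliced RNAs with no assigned reading frame. Readthrough transcripts run past the end of 1 gene and splice into the next, and their junctions commonly place the stop codon of the first gene, or a stop soon after the join, ahead of later exon junctions.

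Most members turned out to be readthrough transcripts and not alternative isoforms of a single coding gene. GENCODE tags 247 of the 286 matched members as readthrough: 179 of 186 nonsense-mediated decay, 12 of 13 retained-intron and 56 of 87 processed transcripts. In all, 217 share exons with at least 2 protein-coding genes on the same strand, 37 with 1 and 32 with none, and 23 belong to a gene that has a protein-coding transcript of its own. A median of 63.4% of the members' exonic bases lie in coding sequence annotated for another transcript on the strand. This share was 70.6% for nonsense-mediated decay, 53.7% for retained-intron and 44.6% for processed transcripts. The median member has 1602.5 bases in 8 exons, and 132 of 286 have no base that another annotated transcript on the strand lacks. A read on such a member cannot be told apart by position from a read on its neighbours, except across a junction of its own. A junction counts here as a member's own where no neighbour gene has it. Other transcripts of the member's gene may share it, so it need not identify the member's reads. Among all 286 matched members, 117 have exactly 1 such junction and 14 have none.

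The sequence held by no other transcript on the strand varied in extent. It reached at least 50 bases in 132 of the 286 matched members, and 3141 of 5905 bases in P2RX5-TAX1BP3. The junctions below are those by which the called members, and the member just outside the threshold, join neighbouring genes. They were read from the GENCODE release 29 transcript sequences on GRCh38, 5′ to 3′ in the sense of the transcript, and the capitals mark the bases of the downstream exon.
AC068234.1, last shared ITGB3 exon to EFCAB13, spliced across chr17:47307638-47328268, plus strand: gcaaaatgggacacaGAAATCCTTTTGTAC
AC007192.1, PIK3R2 exon to an exon between the genes, chr19:18170495-18172356, plus strand: ggcaggttttgtacgGGCTGGTGCCTGGTA
AC007192.1, exon between the genes to IFI30, chr19:18172878-18173803, plus strand: tctgagccctccatgGCAGCCGCTGCAGTC
AC119674.2, PLPP3 exon to an exon of its own locus, chr1:56483455-56496554, minus strand: tcaccacaacatgatCTTGATTCATGGGAT
AC119674.2, exon of its own locus to the long non-coding AC119674.1, chr1:56249201-56483262, minus strand: ttaaggaaaaccaagACCCAAGTGACCACC
P2RX5-TAX1BP3, P2RX5 side to TAX1BP3, chr17:3664799-3669057, minus strand: ggcgcccggagctcgCAAAGAGTTGAAATT

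The stop codon is what gives a transcript the decay type, so its surroundings are printed for the same nonsense-mediated decay members, with the annotated stop in capitals as the final bases.
AC068234.1, stop at chr17:47328362-47328364, plus strand: tttacctctaaacagaaagatggaaacTAA
AC007192.1, stop at chr19:18169292-18169294, plus strand: ggccccggcccgccgcctgccgcccgcTGA
AC119674.2, stop at chr1:56483358-56483360, minus strand: tgtctgctcagttggaagaccccaacaTGA
P2RX5-TAX1BP3, stop at chr17:3672454-3672456, minus strand: ccctctgcttctcccttacaccaggaaTGA
In AC007192.1 and P2RX5-TAX1BP3 the stop lies in an exon of the upstream gene (PIK3R2 and P2RX5), and the start codon is that of the same gene. In AC068234.1 the frame runs from ITGB3 across the join, and the stop lies in EFCAB13. In AC119674.2 the frame leaves PLPP3 and stops in the exon of its own locus.

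The annotation assigns the decay type by the stop's distance to the last junction, and the stop codons were measured against that rule as a check of the label. In 185 of 186 matched nonsense-mediated decay members the stop ended more than 50 bases before the last exon junction, and AL807752.6, a readthrough of NPDC1 and FUT7, was the exception at 29 bases. The median distance was 612 bases, the largest was 4259 bases, and a median of 4 junctions followed the stop. The stop was TGA in 112 members, TAA in 37 and TAG in 37. The annotated reading frames had a median of 149 codons and ran from 4 to 3053. A start codon is annotated for 120 of the 186, and in 99 it is the start codon of the upstream coding gene. Among the 161 that span 2 or more coding genes, the stop fell in an exon of the upstream gene in 69, of the downstream gene in 62, of both in 2 and of neither in 28. The decay class therefore holds both transcripts whose stop lies in an exon of the first gene and transcripts whose frame ends beyond it. A stop in such an exon need not be that gene's own stop codon. In 51 nonsense-mediated decay members the stop codon is shared with a coding neighbour.

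Retention was checked the same way for the retained-intron members. In 8 of the 13 matched, an exon contains a complete intron of another transcript on the strand, compared with 30 of 186 nonsense-mediated decay and 13 of 87 processed transcripts. The retained-intron members hold 39 distinct starts of such introns, of which 36 begin with GT, the usual first bases of an intron. The other starts belong to annotated gaps of 1 and 2 bases in AC069281.2 and of 30 bases in AC109460.3. Examples with the retained GT in capitals are given from VARS2, which encodes a mitochondrial valyl-tRNA synthetase, and from AL162231.4, which reaches CCL27, a skin chemokine.
VARS2, intron chr6:30912147-30912327, plus strand: tgtatgcctacacggGTgaggcgggacaga
AL162231.4, intron chr9:34662417-34662563, minus strand: cagaccctacagcagGTgagtacttggggg

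**Figure D1:**
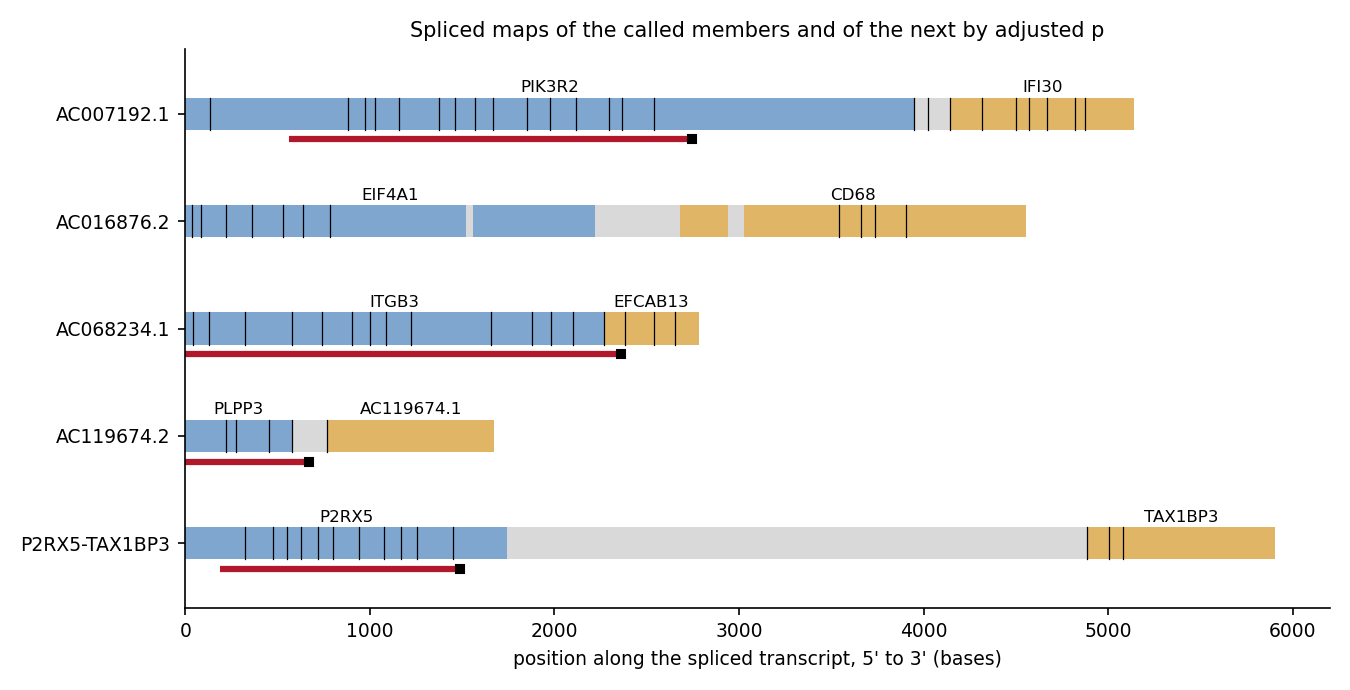
Spliced maps of the 4 called members and of P2RX5-TAX1BP3, with position along the transcript in bases on the horizontal axis. Blue bars are bases shared with the first neighbour gene, orange with the second, grey with neither; black ticks are exon junctions, red lines the annotated reading frame and black squares its stop. The 4 reading frames all stop before later junctions, and AC016876.2 has no annotated frame.

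Few members passed the threshold for a change of efficiency with LARP6 knockdown. An adjusted p under 0.05 was reached by 4 of 318 members in the authors' deposited table (1.26%), against 2.20% of all rows. By direction, the authors' deposited table has 3 members higher, where 1.07% of all rows were higher, and 1 lower, where 1.12% were lower. At an unadjusted p under 0.05 the authors' deposited table has 20 members (6.29%), 10 in each direction, against 10.3% of all rows. The share of members called was thus below that of the table on both counts, and no test of this difference was made. All 4 called members carry the readthrough tag, as do 247 of the 286 matched members (86.4%), so this count is no result about the tag.

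AC007192.1 had the smallest p among the members. It is a nonsense-mediated decay transcript of 25 exons and 5142 bases at chr19:18153158-18178117 on the plus strand. It runs from PIK3R2, a regulatory subunit of phosphoinositide 3-kinase, into IFI30, a lysosomal thiol reductase that prepares antigens. In the authors' deposited table its efficiency rose by 1.49 on the log2 scale (2.81-fold, adjusted p = 1.06e-29). The knockdown's log2 efficiency was 1.99 in the authors' deposited table, and the control's, derived as the knockdown value minus the second method's log2 change, was 0.50. PIK3R2 supplies 76.8% of its bases and IFI30 19.4%. The PIK3R2 row of the authors' deposited table differed by -0.21 (adjusted p = 0.92), with a knockdown log2 efficiency of -0.39. The IFI30 row of the authors' deposited table rose by 0.48 (adjusted p = 0.040), with a log2 efficiency of 2.28. The derived control log2 efficiencies from the authors' deposited table were -0.18 for PIK3R2 and 1.79 for IFI30. The member's level thus lay nearer PIK3R2 in the control and nearer IFI30 in the knockdown, and its change exceeded that of either neighbour. It has 198 bases that no other transcript on the strand holds. Its frame of 728 codons ends 2126 bases before the transcript's last junction, with 9 junctions after the stop.

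AC016876.2 was the only processed transcript called. It lies at chr17:7572826-7582024 on the plus strand, has 12 exons and 4554 bases, and joins EIF4A1, the RNA helicase of the cap-binding complex, to CD68, a lysosomal membrane protein used as a macrophage marker. Its efficiency rose by 1.29 on the log2 scale (2.44-fold, adjusted p = 3.08e-24), from a derived control log2 efficiency of 0.11 to 1.40, in the authors' deposited table. EIF4A1 supplies 48.0% of its bases and CD68 39.3%. Neither neighbour was called in the authors' deposited table: EIF4A1 differed by 0.33 (adjusted p = 0.93) and CD68 by 0.10 (adjusted p = 0.94). The knockdown log2 efficiencies of EIF4A1 and CD68 were -2.36 and 1.74 in the authors' deposited table. SENP3-EIF4A1, another member, which joins the SUMO protease gene SENP3 to EIF4A1, differed in the authors' deposited table by 0.30, with an adjusted p of 0.88. AC016876.2 has no junction of its own. A single exon bridges the gap between the genes, holds introns that EIF4A1 transcripts splice out, and gives it 579 bases that no other transcript holds. That exon also holds the snoRNA gene SNORA67 at chr17:7577955-7578091, and AC016876.2 was 1 of only 2 matched members with an annotated small RNA gene inside an exon. A neighbouring snoRNA, SNORD10, lies in an intron of AC016876.2 and rose in the authors' deposited table by 3.51, with an adjusted p of 0.014. SNORD10 and SNORA67 also lie in introns of SENP3-EIF4A1, which was not called. Whether reads of the snoRNA sequences entered the row of AC016876.2 was not tested. The second member with a small RNA gene in an exon, AC124312.1 with SNORD107, differed in the authors' deposited table by -0.27, with an adjusted p of 0.96.

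AC119674.2 was the only member called lower. It is a nonsense-mediated decay transcript of 6 exons and 1675 bases at chr1:56248294-56524495 on the minus strand, which shares 34.4% of its bases with PLPP3, a phosphatase of lysophosphatidic acid and related lipids, and the rest with its own locus and the long non-coding AC119674.1. In the authors' deposited table its efficiency fell by 0.86 on the log2 scale (1.82-fold, adjusted p = 0.0014), from a derived control value of 1.72 to 0.85. The PLPP3 row of the authors' deposited table fell by 0.91 (adjusted p = 6.1e-07), so member and coding neighbour moved alike. Their levels differed: the knockdown log2 efficiency of PLPP3 was -1.07 in the authors' deposited table. No base of AC119674.2 is free of other annotated transcripts. Its frame of 223 codons stops 95 bases before the last junction.

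AC068234.1 was the third member that rose. This nonsense-mediated decay transcript has 18 exons and 2785 bases at chr17:47253897-47344292 on the plus strand, and 81.4% of it is ITGB3, an integrin beta subunit of the vitronectin receptor, with 18.6% from EFCAB13. Its efficiency rose by 0.91 (1.87-fold, adjusted p = 0.032), from a derived control value of 2.15 to 3.06, in the authors' deposited table. ITGB3 rose in the authors' deposited table by a similar 0.98 (adjusted p = 1.98e-04), at a lower log2 efficiency of 1.94. EFCAB13 differed in the authors' deposited table by -0.33, with an adjusted p of 0.98. All 2785 bases lie in other annotated transcripts, and 1 junction, printed above, is its own. Whether the row repeats ITGB3 reads was not tested.

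The next adjusted p-values belonged to 3 nonsense-mediated decay members, of which only the first was close to the threshold. P2RX5-TAX1BP3 joins an ATP-gated channel gene to a PDZ-domain protein gene at chr17:3663063-3696194 and differed in the authors' deposited table by 0.47, with an adjusted p of 0.056. The rows of its neighbours differed by 1.09 for P2RX5 (adjusted p = 0.49) and 0.39 for TAX1BP3 (adjusted p = 0.14) in the authors' deposited table. AC010197.2 joins LDHB, a lactate dehydrogenase subunit, to the liver glycogen synthase GYS2 and differed in the authors' deposited table by 0.72, with an adjusted p of 0.158, beside 0.66 for LDHB. LDHB supplies 23.7% of this member's bases, and GYS2, which supplies 72.8%, has no coding row. AL133352.1 joins NDUFB8, a respiratory complex I subunit, to the coat protein gene SEC31B and differed in the authors' deposited table by -0.79, with an adjusted p of 0.159, beside -0.63 for NDUFB8. In all 3 the sign was that of each neighbour that has a row.

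**Figure D2:**
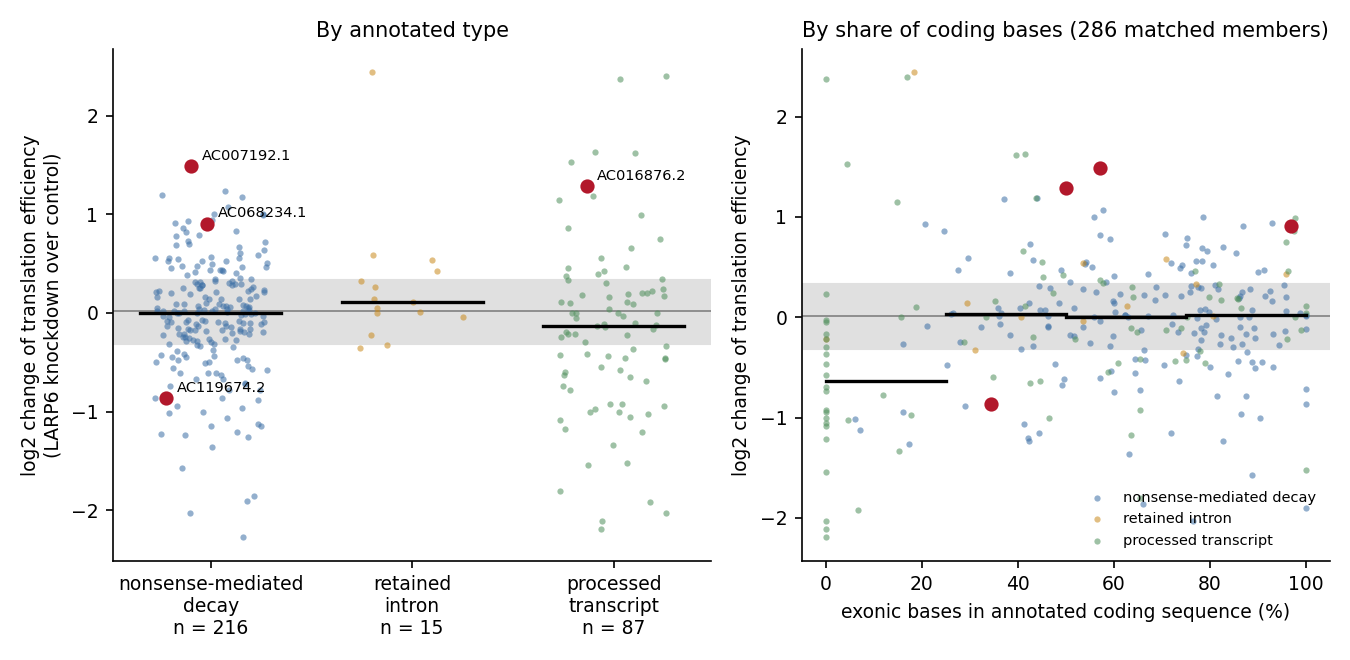
Log2 change of translation efficiency, LARP6 knockdown over control, for 318 members by annotated type (left) and for 286 matched members by the share of their bases in annotated coding sequence (right). Points are members, red points those with adjusted p under 0.05, black bars medians, the grey line and band the median and quartiles of the whole table; the lowest coding bin has a median of -0.64 while the other 3 lie between 0.01 and 0.03.

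Over all members the changes were centred near 0. The median log2 change was -0.005 for members and 0.015 for the whole of the authors' deposited table, with quartiles of -0.42 and 0.31 for members. By type, the median was 0.00 for nonsense-mediated decay, 0.11 for retained-intron and -0.13 for processed transcripts in the authors' deposited table. A change of at least 2-fold in either direction was found for 10.6% of nonsense-mediated decay, 6.67% of retained-intron and 26.4% of processed transcripts, against 10.6% of the whole of the authors' deposited table. Retained-intron transcripts had no call and none of the 15 had an unadjusted p under 0.05 in the authors' deposited table. Of all rows, 2.20% were called and 10.3% had such a p, so a count of 0 among 15 is no result about the type. For nonsense-mediated decay the counts at the unadjusted threshold were 16 of 216 and for processed transcripts 4 of 87 in the authors' deposited table.

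The processed transcripts divided by what they are made of. Of these, 31 lack the readthrough tag, and their median log2 change was -0.55 with 24 of 31 below 0 in the authors' deposited table; none was called and 1 had an unadjusted p under 0.05. All matched members were then grouped by coding content. The 42 members with under 25% of bases in coding sequence had a median of -0.64, and 32 of 42 were below 0, in the authors' deposited table. The medians were 0.03 for 25 to 50% (59 members), 0.01 for 50 to 75% (80 members) and 0.02 for 75 to 100% (105 members) in the authors' deposited table. Log2 efficiency in the low-coding group had a median of 0.75 in the derived control values and 0.05 in the knockdown column of the authors' deposited table. The long intergenic and antisense RNAs of the authors' deposited table had a median of -0.34 with 79 of 127 below 0. For comparison, 5730 of 12109 rows of the authors' deposited table were below 0. Only 1 of the 42 low-coding members had an unadjusted p under 0.05 and none was called in the authors' deposited table, so this is a shift of a median over rows that share libraries, with no row of its own past the threshold. Neither the bins nor the comparison with non-coding RNAs was tested.

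The member behind the single low p of that group was AC141586.1, a processed transcript without coding exons on chromosome 16, which differed in the authors' deposited table by -2.03 (p = 0.012, adjusted p = 0.25). A pseudogene transcript of the same gene differed in the authors' deposited table by -2.18, with an adjusted p of 0.28. AC130462.1, a processed transcript joining DUS2 to NFATC3, a calcium-regulated transcription factor, differed in the authors' deposited table by -1.81, with an adjusted p of 0.48. AC115284.1, joining ABHD14B to the RNA-binding protein gene PCBP4, differed in the authors' deposited table by 1.19, with an adjusted p of 0.30. None of the 3 passed the threshold, and the neighbours measured were not called either.

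Large differences without a call were also found in the decay class. An unmatched row differed in the authors' deposited table by -2.28, with an adjusted p of 0.28. Its log2 efficiency was 2.18 in the derived control and -0.07 in the knockdown column of the authors' deposited table. AC026464.1, which joins TMED6 to the Golgi tether subunit gene COG8, differed in the authors' deposited table by -1.90, with an adjusted p of 0.38, beside 0.03 for COG8. COG8 supplies 35.5% of this member's bases, and TMED6, which supplies 64.5%, has no coding row. C1QTNF3-AMACR joins an adipokine-like secreted protein gene to the racemase gene AMACR and differed in the authors' deposited table by -1.21, with an adjusted p of 0.17. Its neighbours differed in the same direction, by -1.02 for C1QTNF3 and -0.49 for AMACR, in the authors' deposited table. AC004687.2, which joins the ubiquitin ligase gene RNF43 to SUPT4H1, a transcription elongation factor, differed by -1.15 (adjusted p = 0.36), beside -1.14 for SUPT4H1, in the authors' deposited table. SUPT4H1 supplies 22.7% of this member's bases, and RNF43, which supplies 74.2%, has no coding row. Another unmatched decay row differed in the authors' deposited table by 0.99, with an adjusted p of 0.36.

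The efficiency values of members were high and not low relative to the table. The median knockdown log2 efficiency was 0.66 for members and 0.01 for the whole of the authors' deposited table, and 233 of 318 members (73.3%) lay above 0, against 50.3% of all rows. By type, the knockdown medians were 0.70 for nonsense-mediated decay, 0.53 for retained-intron and 0.64 for processed transcripts in the authors' deposited table. The derived control medians were 0.62, 0.53 and 0.81 in that order, so the rank of the types was not the same in the control. Protein-coding rows had a median of -0.03 and processed pseudogenes, which mostly cannot encode a full protein, 1.41 in the authors' deposited table. A ratio of footprints to RNA is not a protein yield, and whether reads on exons shared with neighbours entered it was not tested.

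Longer transcripts tended to have lower efficiency, among members and among coding rows. Members are shorter, with a median of 1602.5 bases against 3059 for protein-coding rows. Across the 286 matched members, length and knockdown log2 efficiency had a Spearman rho of -0.25, and across coding rows one of -0.43, as descriptions of rows that share libraries. Under 1000 bases the median was 1.07 for 109 members and 0.92 for 626 coding rows of the authors' deposited table. From 1000 to 2000 bases it was 0.80 for members and 0.58 for coding rows, and from 2000 to 4000 bases 0.45 and 0.03, in the authors' deposited table. At 4000 bases and more it was 0.18 for 48 members and -0.49 for 3746 coding rows of the authors' deposited table. Members thus had the higher median in each of the 4 length ranges, by the least among the shortest transcripts.

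**Figure D3:**
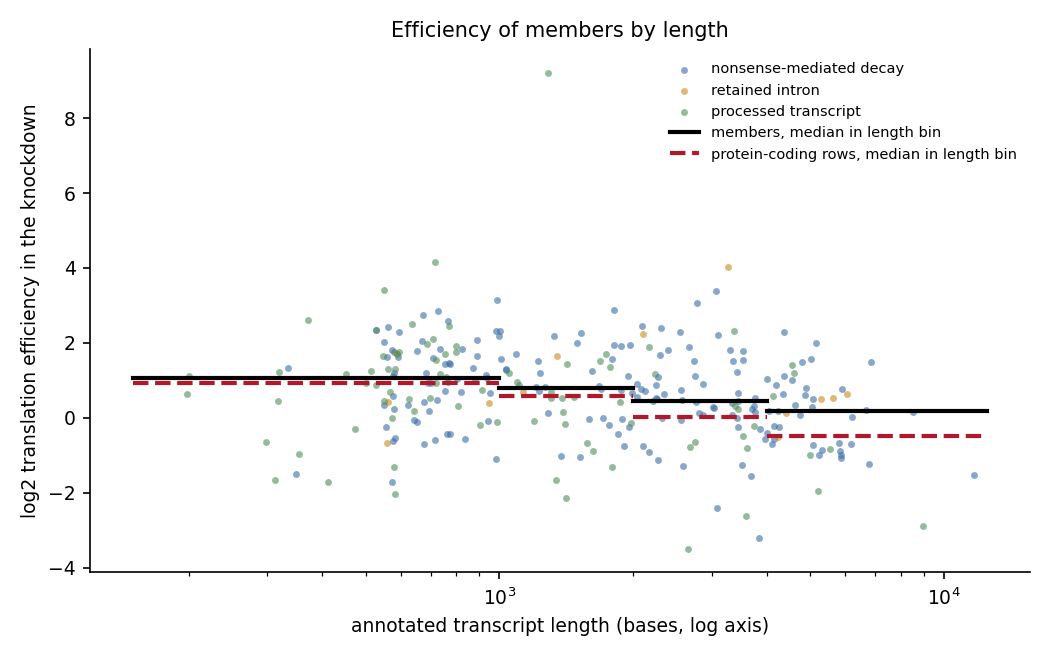
Log2 translation efficiency in the knockdown (vertical axis) against annotated transcript length in bases (horizontal, log axis) for 286 matched members. Black lines are the members' medians and red dashed lines those of protein-coding rows in 4 length ranges; the black line is above the red one in each, from 1.07 against 0.92 in the shortest to 0.18 against -0.49 in the longest.

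Among the processed transcripts, efficiency covered a wide range. HLA-V, a class I HLA pseudogene, had the highest knockdown log2 efficiency of all rows, at 9.20, in the authors' deposited table, where its log2 change was 2.38 (adjusted p = 0.96). It resembles the other class I genes in sequence, so reads may have been split among them, and its value is uncertain. AL009172.2, which joins CFP, the complement factor properdin, to the synapsin gene SYN1, had 4.17 in the authors' deposited table. Near the low end, SCAND2P, a pseudogene transcript, had -2.88 in the authors' deposited table.

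Among the nonsense-mediated decay members the highest knockdown efficiency belonged to AL049839.2, at 3.39 in the authors' deposited table. This readthrough of the serine protease inhibitor genes SERPINA5 and SERPINA3 holds the same values as the SERPINA3 row to 6 decimals, with a log2 change of 1.19 and a p of 0.234 in both rows of the authors' deposited table. The member therefore gives no value independent of SERPINA3. In all, 22 rows of the authors' deposited table repeat another row in this way, and this is the 1 member among them. AL807752.7, which joins the prostaglandin D synthase gene PTGDS to LCNL1, had 3.15 in the authors' deposited table, beside 2.79 for PTGDS. At the low end, AC091167.2, which joins TTLL13P to NGRN, had -3.20 and AC135178.2, which joins the ribosomal protein gene RPL26 to KRBA2, had -2.41 in the authors' deposited table. In the retained-intron type, AL162231.4 had 4.03 and AL096870.2, which joins MDP1 to CHMP4A of the ESCRT membrane-scission machinery, had 2.25 in the authors' deposited table. AC092143.3, which joins TCF25 to the melanocortin receptor gene MC1R, was the lowest at -0.67, and AL355987.4, which joins CCDC183 to RABL6, had -0.53 in the authors' deposited table.

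The rows of the neighbouring genes were set beside each readthrough member. Of the 217 that span 2 or more coding genes, 120 have both the first and the last neighbour in the table, 95 have 1 and 2 have none. A member's efficiency exceeded that of both neighbours in 63 of 120 (52.5%), lay between them in 46 and below both in 11, in the authors' deposited table. For the log2 change, 56 members lay between their neighbours, 36 above both and 28 below both in the authors' deposited table.

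Member and neighbour correlated more strongly for the neighbour that contributes more bases than for the one that contributes fewer. Across the 174 members whose larger contributor has a row, the log2 changes of member and neighbour had a Pearson r of 0.51 and a Spearman rho of 0.51. Their knockdown efficiencies had 0.60 and 0.58. With the smaller contributor (161 members) the values were 0.32 and 0.32 for the change and 0.37 and 0.37 for the efficiency. Where the larger contributor supplied at least 60% of bases (103 members), the change had 0.38 and 0.43. The efficiency had 0.64 and 0.58 there. By position, the change had 0.51 and 0.47 with the upstream neighbour (176 members) and 0.29 and 0.34 with the downstream one (159 members). The efficiency had 0.45 and 0.45, and 0.54 and 0.51, in that order. These are descriptions: member and neighbour share exons and libraries, and the sets of members overlap. The 174 include AL049839.2, whose row repeats that of SERPINA3. The member had the higher efficiency of the pair in 137 of 174 (78.7%), with a median log2 difference of 0.43, in the authors' deposited table. Among the 7 genes with both a member and a protein-coding row under 1 symbol (EMG1, FAM200B, FOXO1, KIF2A, NLRP1, PEX26 and TPCN2), the member had the higher knockdown log2 efficiency in 7. In PEX26, a peroxisome import factor gene, it was 0.78 for the member and -0.79 for the coding row, and the smallest gap was in TPCN2, an endolysosomal channel gene, at 0.34 and 0.33, in the authors' deposited table. Neither the members nor the coding rows of these genes were called.

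**Figure D4:**
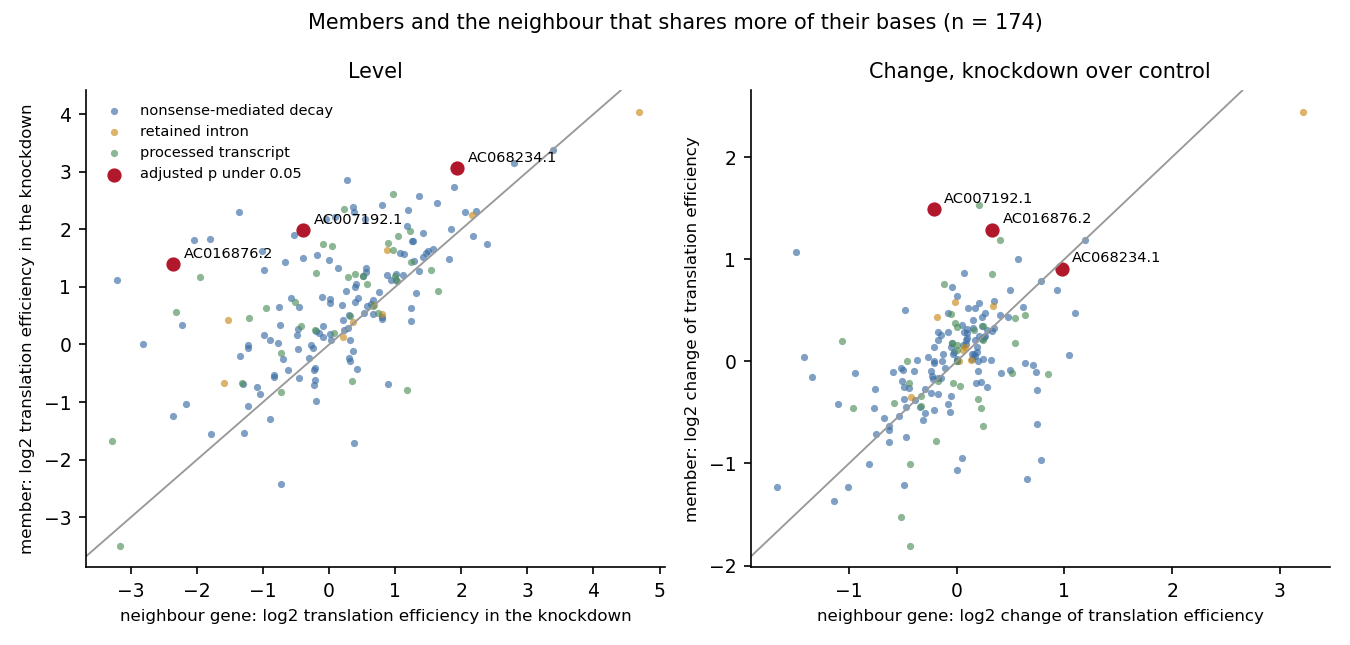
Each of 174 readthrough members (vertical axes) against the neighbour gene that shares more of its bases (horizontal axes), for log2 efficiency in the knockdown (left) and log2 change (right); the grey line marks equality and red points are members with adjusted p under 0.05. On the left 137 of 174 points lie above the line, and on the right AC068234.1 lies near the line while AC007192.1 and AC016876.2 lie above it.

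Few neighbours were called, as were few of all rows (2.20%). The first neighbour was called for 2 of 176 members where it has a row (1.14%), and the last for 1 of 159 (0.63%). Of the 217 spanning members, 3 thus adjoin a first or last coding gene that was itself called. AC007192.1 beside IFI30 and AC068234.1 beside ITGB3 were called as well. With 3 cases this is no result about calls shared by member and neighbour. The third was AC093423.3, which joins LRRC8C to LRRC8D, both subunits of the volume-regulated anion channel. LRRC8C rose by 1.41 (adjusted p = 0.019) and LRRC8D differed in the authors' deposited table by -0.08, with an adjusted p of 0.98. The member, with close to equal shares of 49.7% and 50.3% from them, differed in the authors' deposited table by 0.47, with an adjusted p of 0.94. AC119674.2 is not among these because only 1 of its neighbours is a coding gene.

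The genes of the pathways that act on these transcripts were counted against the 2.20% of all rows called in the authors' deposited table. A count of 0 or 1 in lists of 8 to 51 genes is near that share and is no result about the list. Of 19 nonsense-mediated decay factors listed, 17 have a row and 0 were called in the authors' deposited table (0 at an unadjusted p under 0.05), with a median log2 change of 0.03. None of the 8 exon junction complex genes with a row was called in the authors' deposited table (0 at an unadjusted p under 0.05). The same holds for the 22 SR proteins and their regulators, splicing factors whose own mRNAs often carry decay exons (1 at an unadjusted p under 0.05 in the authors' deposited table). Among 51 hnRNP and other splicing genes 1 passed the threshold in the authors' deposited table, and it rose. Of the 18 stress mRNAs known to be sensitive to decay, the authors' deposited table has 1 that rose and 3 that fell, with a median log2 change of -0.40. Of 24 snoRNA host genes 1 was higher in the authors' deposited table. According to the authors' deposited table, 2 of 33 translation factor genes and 2 of 38 ribosomal protein genes with a row rose, and 0 of either list fell. These lists refer to rows that are not members.

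Members that adjoin listed genes were few. Of the 4 at translation factor genes, 1 was called, AC016876.2 at EIF4A1, and SENP3-EIF4A1 was not, as described above. AP002990.1, which joins TUT1 to the elongation factor subunit gene EEF1G, differed in the authors' deposited table by 1.00, with an adjusted p of 0.69. AL121753.1, at the 60S subunit anti-association factor gene EIF6, differed in the authors' deposited table by 0.28, with an adjusted p of 0.88. At splicing genes, AC015813.2 at SRSF1 differed by 0.10, AL049650.1 at SNRPB by 0.51 and ATP6V1G2-DDX39B by -0.07 in the authors' deposited table, with no call. AC079781.5, at the asparagine synthetase gene ASNS, differed in the authors' deposited table by 0.55, with an adjusted p of 0.87. At ribosomal protein genes, AC135178.2 at RPL26 differed by 1.07 and AC010619.2 at RPL13A by -0.21 in the authors' deposited table, with no call. RPL26 supplies 11.7% of the bases of AC135178.2, and KRBA2, which supplies 88.3%, differed in the opposite direction by -1.49. RPL13A supplies 5.9% of AC010619.2, and FLT3LG, which supplies 56.3%, differed by -0.44. Neither KRBA2 nor FLT3LG was called. No member adjoined a gene of the decay factor list, the exon junction complex list or the list of 49 matrix and contractile genes. Matrix and contractile genes, of which 46 have a row, included 4 risers and 13 that fell according to the authors' deposited table. Of all rows, 1.07% rose and 1.12% fell, so this list held larger shares of both. No test of this difference was made, and the list was chosen with earlier results of these data known.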

How the data were processed

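Reads of 8 libraries were processed by the authors. The tools cutadapt and Bowtie and the builds hg38 and GRCh38 are listed in the submitters' processing notes, with no order. Not given in the sources used here are the counting, the handling of reads shared between transcripts, the authors' annotation and the program of comparison. Per the file headers, the deposited values are log2 changes of translation efficiency by 2 methods and a final one, the knockdown's log2 efficiency, and p-values by method, final and adjusted. In all 318 members the deposited final p-value is the larger one of both methods (relative tolerance 1e-09). The planned count models were not run, since the table holds no counts and depth and precision per library are unknown.

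Row digits were joined to GENCODE release 29 on GRCh38 (11590 of 12109 rows matched) with Python 3.11.15 and pandas 2.3.3. Control log2 efficiency was derived as the knockdown value minus the second method's log2 change. A call is an adjusted p under 0.05. Neighbours are genes on the same strand that share exons with a member and are neither readthrough nor small RNAs. The 2 neighbour symbols found on more than 1 coding row were represented by the first. The members and lists were chosen with earlier results of these data known. The neighbour comparison, the coding and length ranges, the search for small RNAs and identical rows, and list membership through a neighbour were chosen after the values were seen.

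Named members are those called, the 3 with the next adjusted p, in each type the 4 largest rises and falls at an unadjusted p under 0.05, in each type the 2 highest and 2 lowest efficiencies, up to 3 per list by smallest p, and coding rows of the same genes. A few others were named after their values were seen: AL807752.6, VARS2, AC069281.2, AC109460.3, AC093423.3, SENP3-EIF4A1 and the neighbour and snoRNA rows. The adjustment and interval functions were tested on simulated data. A few members that this rule names are not reported here.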

Additional observations from a re-analysis of the deposited data

How the results depend on the processing

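The 4 called members kept their direction under each of the authors' methods alone. Each method's p was adjusted here by Benjamini-Hochberg over the whole of the authors' deposited table. All 4 also kept their calls, but this was fixed in advance: the final p is the larger of both in all 12109 rows. Either method alone can therefore keep or add calls but not lose one. Calls numbered 3 at an adjusted p under 0.01, which loses AC068234.1, and 5 under 0.1, which adds P2RX5-TAX1BP3. They numbered 20 at an unadjusted p under 0.05 (10 higher and 10 lower), 2 at an adjusted p under 0.05 with at least a 2-fold change (0 lower), and 0 among the 23 members whose gene has a protein-coding transcript (0 higher and 0 lower). The first method alone gave 6 calls, of which 5 were higher, and the second 6, of which 2 were lower (1.89% of members each, against 3.77% and 2.82% of the table). The median log2 change of members, -0.005 as deposited, was -0.0227 by the first method and 0 by the second, 0 with matched members only and 0 with at least 200 exonic bases. Median knockdown log2 efficiency among members with at least 50 bases held by no other transcript on the strand, an alternative chosen after seeing the data, was 0.51 for nonsense-mediated decay, 0.52 for retained-intron and 0.46 for processed transcripts. With at least 50 bases held by no other transcript of the same gene the processed transcripts had 0.66. No paired analysis was possible because the table holds no values per library. For the same reason count models, other normalizations and filters, and leaving out a replicate were not run, and what depth limits is unknown.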

Other observations

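The 3 rows that carry the nonsense-mediated decay word but match a protein-coding transcript in GENCODE release 29 were not called in the authors' deposited table. COQ8A, a mitochondrial kinase-like protein of coenzyme Q synthesis, differed by -0.14, POLDIP3, an mRNA export factor, by -0.28 and AL360181.3 by -0.25 in the authors' deposited table.

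Readthrough members with smaller differences at an unadjusted p under 0.05 included AL136295.5 and AC005258.1. AL136295.5 joins RNF31, a subunit of the linear ubiquitin ligase, to the interferon-response factor IRF9, and differed in the authors' deposited table by 0.41 (p = 0.016, adjusted p = 0.29), beside 0.64 for RNF31 and 0.15 for IRF9. AC005258.1 joins OAZ1, the polyamine-sensing antizyme whose own mRNA is read with a frameshift, to the intramembrane protease gene SPPL2B. It differed in the authors' deposited table by 0.29 (p = 0.048, adjusted p = 0.48), beside 0.13 for OAZ1 and -0.08 for SPPL2B. These members were picked out after their values were seen.

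Pseudogene loci with a processed transcript and a pseudogene transcript in the table numbered 6 (AC141586.1, AP000769.1, DSTNP2, RP9P, ZNF252P and ZNF542P). In AP000769.1 the log2 changes were -0.69 and -0.65, and in ZNF252P -1.05 and -1.73, in the authors' deposited table. In ZNF542P they had opposite signs, at -0.03 for the processed transcript and 0.08 for the pseudogene transcript. At the other loci listed both rows were below 0. None of these 12 rows was called.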
